A study of Mus musculus with 8 samples.

Results

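Transcripts of 9 genes that break down stored fat or coat the lipid droplet were followed in mouse gonadal white adipose tissue, the visceral fat pad beside the gonads. The members were taken by gene symbol from the array's platform annotation: the lipases Pnpla2, Pnpla3, Lipe and Mgll, the lipase regulators Abhd5 and G0s2, and the droplet proteins Plin2, Plin4 and Cidec. They were represented by 16 of the 45037 probe sets used, and, with 1 probe set per gene, by 9 of 18193 genes. RNA had been hybridised to Affymetrix mouse expression arrays, 1 sample to an array. The knockout group, labelled aP2-Pex5 -/-, held 4 arrays, and the wild type control group held 4. All mice were 10 weeks old, untreated and kept under normal conditions, and the series text gives a Swiss background for the controls. Pex5 is the import receptor of the peroxisome, and per the submitters the knockout fat has no functional peroxisomes. The aP2 promoter belongs to Fabp4, which adipocytes express and which macrophages can also use, so the deletion need not be limited to adipocytes, and the fat pad holds other cells in which it may not occur. Sex is not given in the labels, nor is it said that each array held RNA of its own animal, so the spread behind each p-value is that between arrays and may be technical in part.

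Adipocytes store triglyceride in a lipid droplet whose surface proteins control access of lipases. On hormonal stimulation triglyceride is cleaved in turn by adipose triglyceride lipase (Pnpla2), hormone-sensitive lipase (Lipe) and monoglyceride lipase (Mgll), while Abhd5 activates the first of these and G0s2 inhibits it. Perilipins and Cidec shield the droplet, and Cidec lets droplets fuse into the large droplet typical of white fat. Peroxisomes lie close to lipid droplets in fat cells and shorten very long acyl chains.

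The 250 bases before the annotated start of 4 members are shown, the 3 whose transcripts had the largest standard deviation over the arrays and the 1 with the smallest, because control 4 was the lowest array in each of them while the spread differed. Sequences are from RefSeq on GRCm38.p6, written along the gene's own strand, and capitals mark matches to any motif searched. Pnpla3 lies on the plus strand, at chr15:84167566-84167815. Plin2, at chr4:86670060-86670309, G0s2, at chr1:193273189-193273438, and Plin4, at chr17:56109783-56110032, lie on the minus strand.
Pnpla3: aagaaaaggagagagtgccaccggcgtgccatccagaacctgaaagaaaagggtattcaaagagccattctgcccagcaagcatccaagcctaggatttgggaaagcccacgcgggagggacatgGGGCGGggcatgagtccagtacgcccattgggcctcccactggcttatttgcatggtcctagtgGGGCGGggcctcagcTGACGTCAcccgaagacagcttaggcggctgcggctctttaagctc
Plin2: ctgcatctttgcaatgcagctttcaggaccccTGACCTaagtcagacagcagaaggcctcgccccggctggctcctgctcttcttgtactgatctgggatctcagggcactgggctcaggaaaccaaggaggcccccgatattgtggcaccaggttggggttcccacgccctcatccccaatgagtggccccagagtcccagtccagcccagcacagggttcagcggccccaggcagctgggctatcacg
G0s2: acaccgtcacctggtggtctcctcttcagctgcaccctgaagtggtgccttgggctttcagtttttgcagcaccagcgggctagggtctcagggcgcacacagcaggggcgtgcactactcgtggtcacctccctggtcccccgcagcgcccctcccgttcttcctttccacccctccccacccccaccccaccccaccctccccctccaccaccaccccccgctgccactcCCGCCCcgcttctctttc
Plin4: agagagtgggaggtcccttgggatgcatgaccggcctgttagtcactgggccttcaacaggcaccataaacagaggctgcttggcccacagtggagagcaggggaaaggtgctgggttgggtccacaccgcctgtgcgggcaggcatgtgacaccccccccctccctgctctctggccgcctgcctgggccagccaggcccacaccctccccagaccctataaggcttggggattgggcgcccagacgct

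Motifs were searched on both strands. The direct repeat bound by PPAR and RXR was written AGGTCANAGGTCA, and the single nuclear receptor site, which that repeat contains, AGGTCA. The others, the E-box CACGTG, the cAMP response element TGACGTCA and the GC box GGGCGG, do not contain one another. Pnpla3 held a cAMP response element match beginning 46 bases before the start, a motif found in 1.55% of the 32851 windows of the same length over all genes. It also held GC boxes at 125 and 61 bases before the start. Plin2 held the single nuclear receptor site, in reverse, at 218 bases, a match found in 14.0% of windows. G0s2 held a GC box, in reverse, at 18 bases, found in 32.7% of windows, and the Plin4 window held none of these motifs. All 9 members had at least 1 window, 12 in all. The direct repeat was in 0 of the 12, against 0.0335% of all windows, and the E-box was in 1 window each of Mgll and Lipe, against 6.02%. A match describes letters in a window and not a bound site.

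The Pex5 probe sets could not check the genotype, since the labels do not say which part of the gene was deleted. On the log2 scale probe set 1426770_at read 9.27 to 9.50 in knockout and 9.06 to 9.58 in control, and 1422063_a_at 8.75 to 9.30 in knockout and 8.55 to 9.39 in control, so both overlapped. The arrays fell into 2 sets by the lower quartile of their values, knockouts 6 and 8 with controls 1 and 2 (set 1), and knockouts 9 and 10 with controls 3 and 4 (set 2). What the sets stand for is not given in the labels. For pyruvate carboxylase, whose 3' probe set minus its 5' one grows as RNA degrades, this gap was 3.97 to 4.83 on knockout 9 and controls 1 and 4 and 1.59 to 2.10 on the other arrays. Adipocyte markers (6 of 8 measured) averaged 12.99 to 13.17 in knockout and 12.81 to 13.17 in control. Control 4 was highest of the 8 arrays in all 4 neutrophil markers, with a mean of 9.68 against 6.09 to 6.67 in knockout and 6.27 to 6.57 in the other controls. Liver markers averaged 5.99 to 8.80 in knockout and 6.03 to 11.00 in control, highest on control 1.

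No member passed the test between knockout and control. Differences, knockout minus control on the log2 scale, ran from -0.27 for Plin2 to 0.20 for Pnpla3, and 6 were above and 3 below 0, where 46.7% of all genes were above and 53.3% below. Their median was 0.02, against -0.0082 over all genes. By limma over 18193 genes the adjusted p was 0.999 for each member, and 0% of all genes passed an adjusted p of 0.05. At an unadjusted p under 0.05 there were 0 members and 2.56% of all genes, and the smallest unadjusted limma p of a member was 0.364. The groups overlapped in 9 of 9 members, and failed to overlap in 1.7% of all genes. The members' 95% intervals reached from 0.19 to 0.89 to either side of the difference, where the median over all genes was 0.25. For Pnpla2 the interval of the ratio of knockout to control was 0.888 to 1.16, and for Pnpla3 it was 0.622 to 2.13.

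Pnpla2, which starts triglyceride breakdown, varied little. It read 13.03, 12.85, 13.04 and 12.99 on knockouts 6, 8, 9 and 10, against 12.93, 12.78, 13.06 and 13.05 on controls 1, 2, 3 and 4. The knockout arrays all lay within the control range, and the difference was 0.02 (95% interval -0.17 to 0.22). Its standard deviation over the 8 arrays was 0.10, larger than that of 20.9% of genes. A dimmer probe set of the gene, 1428591_at, read 6.50 to 7.21 in knockout and 6.40 to 6.90 in control, and its difference was 0.13 (-0.25 to 0.51).

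Pnpla3, a relative of Pnpla2 that sits on droplets and whose liver transcript is known to follow feeding, varied most of the 9. It read 12.72, 12.53, 12.83 and 11.74 on knockouts 6, 8, 9 and 10, against 12.81, 12.82, 12.17 and 11.20 on controls 1, 2, 3 and 4. Knockout 10 and control 4 were the low arrays, and the lowest and highest of the 8 arrays were 3.09-fold apart. The group means were 12.45 ± 0.49 in knockout and 12.25 ± 0.77 in control (SD, n = 4 each), a difference of 0.20 (95% interval -0.68 to 1.09). Control 4 set the sign: without it the difference was -0.15 (-0.82 to 0.53). Its spread exceeded that of 95.6% of genes.

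Lipe, which mainly cleaves diacylglycerol, had its lowest values on arrays of either group. It read 13.27, 13.21, 12.85 and 13.27 on knockouts 6, 8, 9 and 10, against 13.15, 13.46, 13.28 and 12.65 on controls 1, 2, 3 and 4. Control 4 and knockout 9 stood low, and both had the large pyruvate carboxylase gap, while control 1, which also had it, lay near the mean of the 8 arrays. The difference was 0.02 (-0.39 to 0.42), and with that RNA measure as a covariate it was -0.09 (-0.31 to 0.14); its part in the levels was not tested further. The other probe set of Lipe, 1432180_at, stayed at 3.62 to 3.85 in knockout and 3.67 to 4.00 in control. Spermatid markers, of interest because testis also uses Lipe, averaged 9.73 on knockout 9 and 9.01 on control 3, against 5.45 to 5.64 on the other knockouts and 5.62 to 7.10 on the other controls. The part of these cells in the Lipe levels was not tested.

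Mgll, which releases the last fatty acid from glycerol, read 13.57, 13.25, 13.26 and 13.29 on knockouts 6, 8, 9 and 10. Controls 1, 2, 3 and 4 read 13.33, 13.54, 13.26 and 13.14. Knockout 6 and control 2 stood above the rest, and the difference was 0.02 (-0.23 to 0.27). Mgll had 4 probe sets, whose differences were 0.02, 0.06, -0.13 and 0.15, so that their signs were mixed, with every 95% interval across 0. The 3 bright ones, 1426785_s_at, 1453836_a_at and 1450391_a_at, averaged 13.34, 12.95 and 12.78 in knockout and 13.32, 12.89 and 12.91 in control.

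**Figure D1:**
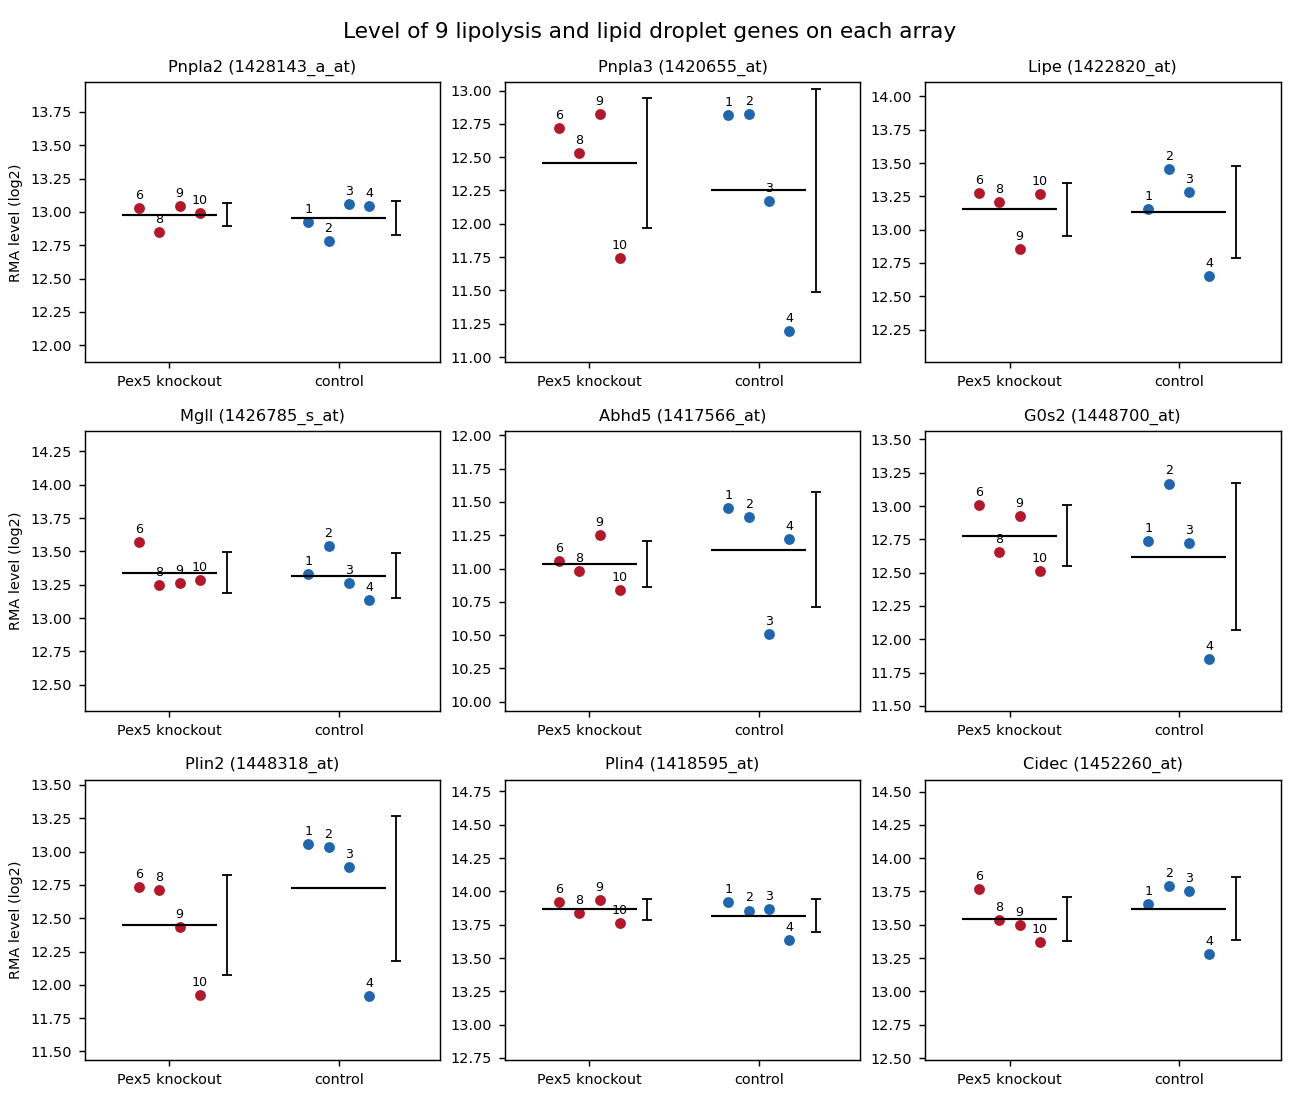
RMA level (log2) of each of the 9 genes on every array, with 4 Pex5 knockout arrays on the left and 4 control arrays on the right of each panel. Points are arrays with their label numbers, lines are group means and bars are SD. Every panel spans the same number of log2 units, so that the narrow clouds of Pnpla2 and Plin4 and the wide ones of Pnpla3, G0s2 and Plin2 can be compared, and the groups overlap in each panel.

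Abhd5, the activator of Pnpla2, read 11.06, 10.98, 11.25 and 10.84 on knockouts 6, 8, 9 and 10. Controls 1, 2, 3 and 4 read 11.45, 11.38, 10.51 and 11.22. Control 3 stood lowest of all 8 arrays, while controls 1 and 2 stood highest. The difference was -0.11 (-0.58 to 0.36), and without control 3 it was -0.32 (-0.59 to -0.06). That value had an unadjusted limma p of 0.0234 and an adjusted p of 0.9997, within a range of 0.703 to 1 over the alternatives tried. In that fit 521 of 18193 genes had an unadjusted limma p under 0.05 in either direction. Since control 3 was the lowest control, leaving it out could only lower the difference. A second bright probe set, 1417565_at, followed the same order at its low end, with control 3 lowest at 10.38 and knockout 10 next at 10.51. Its group means were 10.74 ± 0.17 in knockout and 10.77 ± 0.28 in control (SD, n = 4 each), and without control 3 its difference was -0.16 (-0.42 to 0.11).

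G0s2, a small protein that inhibits Pnpla2, read 13.01, 12.66, 12.93 and 12.52 on knockouts 6, 8, 9 and 10, against 12.74, 13.17, 12.72 and 11.85 on controls 1, 2, 3 and 4. Control 4 lay 1.02 log2 units below the mean of the other controls, and the knockouts lay between the extremes of the controls. The difference was 0.16 (-0.43 to 0.75), a ratio of 1.12, and without control 4 it was -0.10 (-0.48 to 0.28).

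Plin2, a coat protein of small droplets in most cell types, was lowest in knockout relative to control among the 9. It read 12.73, 12.71, 12.43 and 11.92 on knockouts 6, 8, 9 and 10, against 13.06, 13.04, 12.89 and 11.92 on controls 1, 2, 3 and 4. Controls 1, 2 and 3 lay above all 4 knockouts, and control 4 lay level with knockout 10, the lowest knockout, so the groups overlapped through that array. The difference was -0.27 (-0.93 to 0.38), a ratio of 0.827, and did not pass. Without control 4 it was -0.54 (-1.00 to -0.08), with an unadjusted limma p of 0.0264 and an adjusted p of 0.552, in a range of 0.529 to 1 over the alternatives. In that fit 3.96% of all genes were lower at an unadjusted p under 0.05. Control 4 was the lowest control for Plin2, so leaving it out could only lower the difference. Without knockout 10 the Plin2 difference was -0.10 (-0.76 to 0.56), without control 1 -0.16 and without control 2 -0.17.

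Plin4, a coat protein abundant in white adipocytes, varied about as little as Pnpla2. It read 13.92, 13.84, 13.93 and 13.76 on knockouts 6, 8, 9 and 10, against 13.92, 13.86, 13.86 and 13.64 on controls 1, 2, 3 and 4. Control 4 was low again, but by 0.24 from the mean of the other controls, and the difference between groups was 0.05 (-0.14 to 0.24). Cidec read 13.77, 13.54, 13.50 and 13.37 on knockouts 6, 8, 9 and 10. Controls 1, 2, 3 and 4 read 13.66, 13.79, 13.75 and 13.28. Control 4 was lowest and knockout 10 next, and the difference was -0.08 (-0.38 to 0.23). Without control 4 the Cidec difference was -0.19 (-0.43 to 0.05).

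**Figure D2:**
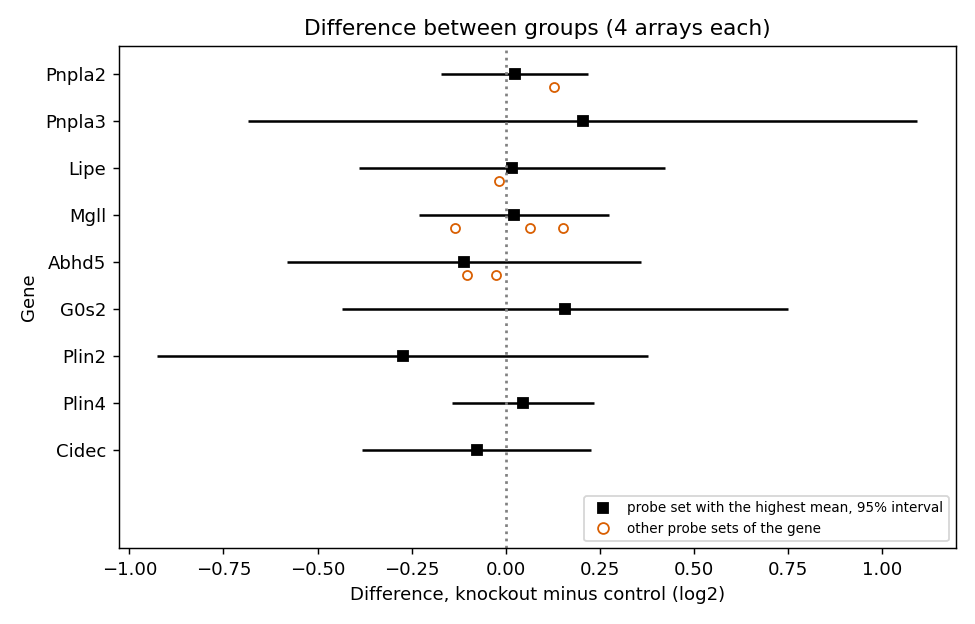
Difference between knockout and control (log2, horizontal axis) for each gene, with the 95% limma interval of its brightest probe set as a bar and other probe sets of the gene as open circles. Every interval crosses 0, from the narrow bars of Plin4 and Pnpla2 to the wide bar of Pnpla3, and the open circles of Mgll lie on either side of 0.

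Control 4 set the low end of most members. It was the lowest of the 8 arrays in 7 of 9, all but Pnpla2 and Abhd5, where it was lowest in 14.5% of all genes and in 22.5% of the 1158 genes with a mean level at least that of Abhd5. Knockout 10 was among the 2 lowest arrays in 6 of 9 members, against 25.5% of all genes and 31.3% of those 1158. Centred on each gene's own mean, Pnpla3 was at -1.15 on control 4 and -0.61 on knockout 10, and Plin2 at -0.67 and -0.66. G0s2 was at -0.84 on control 4 and -0.18 on knockout 10. On control 2 these 3 genes were at 0.47, 0.45 and 0.47. The median SD over the 8 arrays was 0.26 for the members, 0.15 for all genes and 0.13 for those 1158. Of the members 3, Pnpla3, Plin2 and G0s2, lay in the top 10% of all genes by SD. These are descriptions of 8 arrays, and in whole tissue fewer cells of a type and less RNA per cell cannot be told apart. On control 4, 3 of 6 adipocyte, 5 of 8 liver, 2 of 6 brown adipocyte and 1 of 5 skeletal muscle markers were also at their lowest. At their highest were 4 of 4 neutrophil, 2 of 4 endothelial, 2 of 6 fibroblast and preadipocyte and 1 of 8 macrophage markers. Of 3 red blood cell markers, 1 was at its lowest and 1 at its highest. No mesothelial, spermatid or epididymal marker was at either end. The part of any of these cells in the members' levels was not tested. Without control 4, 8 of 9 members were lower in knockout, against 51.5% of all genes, with a median of -0.10 against -0.0049 over all genes. In that fit 1 of 9 had an unadjusted limma p under 0.05, against 8.61% of all genes. Because control 4 was lowest in 7 of 9 members, leaving it out lowers the differences of those 7 by construction. The count of 8 is therefore no evidence of a decrease in the members.

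**Figure D3:**
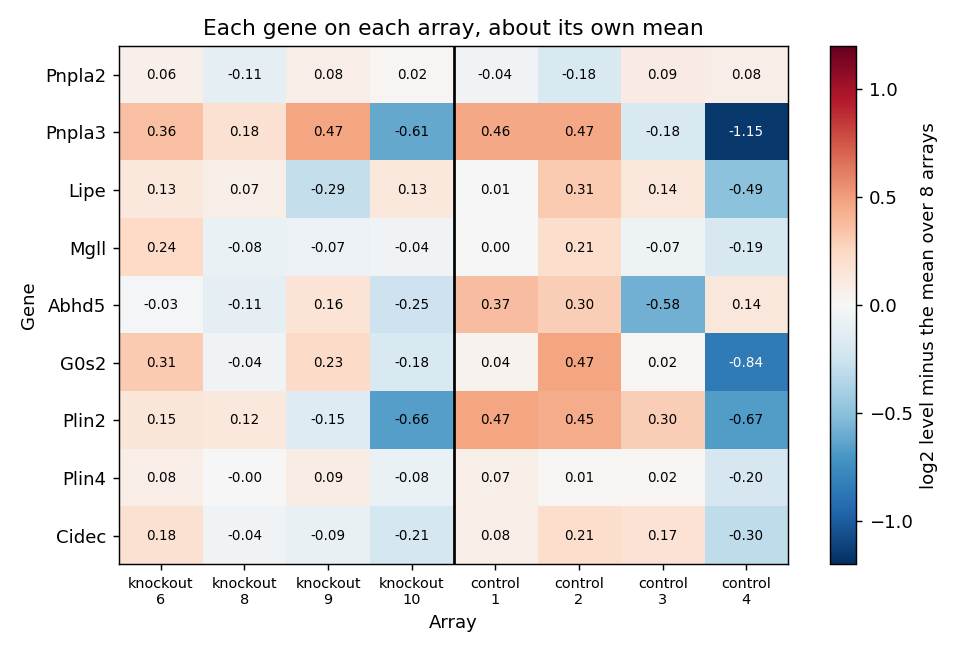
Level of each gene (rows) on each array (columns, knockouts left of the line and controls right), as log2 difference from that gene's mean over the 8 arrays. Control 4 is the darkest blue column, at -1.15 for Pnpla3 and -0.84 for G0s2, and knockout 10 is blue for Pnpla3 (-0.61) and Plin2 (-0.66), while Pnpla2 and Plin4 are pale throughout.

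Within the 2 array sets the differences changed sign for several members. In set 1, knockouts 6 and 8 against controls 1 and 2, Pnpla3 differed by -0.19 (-0.47 to 0.09) and G0s2 by -0.12 (-0.69 to 0.45). In set 2, knockouts 9 and 10 against controls 3 and 4, they differed by 0.60 (-0.81 to 2.01) and 0.43 (-0.52 to 1.38). Abhd5 averaged 11.02 in knockout and 11.42 in control in set 1, and 11.04 in knockout and 10.87 in control in set 2. Its difference was -0.40 (-0.64 to -0.16) in set 1, with an unadjusted limma p of 0.00982 and an adjusted p of 0.703, and 0.18 (-0.65 to 1.01) in set 2. The second bright Abhd5 probe set, 1417565_at, averaged 10.78 in knockout and 10.86 in control in set 1, a difference of -0.072 (-0.38 to 0.23); its subset values were added after seeing the data. Plin2 kept its sign, at -0.32 (-0.55 to -0.10) in set 1, with an unadjusted limma p of 0.0154 and an adjusted p of 0.703, and -0.22 (-1.30 to 0.85) in set 2. In set 1 4.28% of all genes were lower at an unadjusted p under 0.05. Cidec kept its sign too, at -0.07 and -0.08. The other members moved between -0.06 and 0.10 across the sets, Pnpla2 at 0.09 and -0.04, Lipe at -0.06 and 0.10, Mgll at -0.03 and 0.07 and Plin4 at -0.0060 and 0.10, for set 1 and set 2. Whether the differences of the sets differ from each other was not tested.

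**Figure D4:**
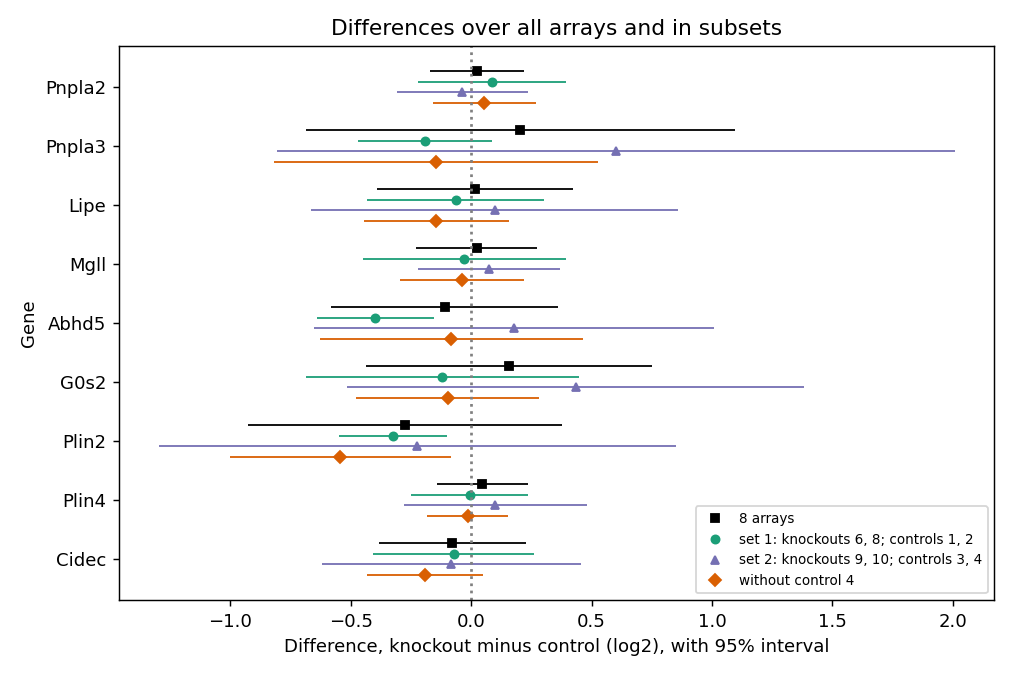
Difference between knockout and control (log2, with 95% limma interval) for each gene over 8 arrays (squares), within set 1 (circles), within set 2 (triangles) and without control 4 (diamonds). The set 1 intervals of Abhd5 and Plin2 and the Plin2 interval without control 4 lie below 0, Pnpla3 and G0s2 change side between the sets, and the set 2 intervals are the widest for most genes.

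For the 3 members with the largest spread, the genes of at least median level with the most similar profile were found by the root mean square difference between profiles centred on their own mean, over 8 arrays and 9095 candidates. Nearest to Pnpla3 were Agpat2, which makes phosphatidic acid (0.25), Pmepa1, a membrane protein (0.25), and Thrsp, a nuclear protein of lipogenic tissue (0.26), where the median candidate was at 0.57. Thrsp read 13.85, 13.98, 13.88 and 13.24 on knockouts 6, 8, 9 and 10, against 14.19, 14.19, 14.14 and 12.74 on controls 1, 2, 3 and 4, low on the same 2 arrays as Pnpla3. Nearest to Plin2 were the kinase Riok2 (0.12), the ubiquitin-conjugating enzyme Cdc34 (0.12) and Hsd17b12, a reductase of fatty acid elongation (0.14), against a median of 0.43. Nearest to G0s2 were Gypc, Tubb2a and Trmt61a (each 0.14), against a median of 0.39. The knockout minus control differences of these 9 genes ran from -0.36 for Hsd17b12 to 0.22 for Trmt61a. Likeness here rests on the few arrays that stand apart and carries no test.

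The other genes of the pathway were counted over lists, with 0 genes past the limma threshold in any of them in either direction, as over all genes (0%). The droplet coat protein Plin1 was listed but not measured, as no probe set carried its symbol alone. Of 19 measured proteins of the droplet surface or droplet formation, 8 were higher and 11 lower (median -0.02), and 0 had an unadjusted p under 0.05. Over all genes 53.3% were lower and 2.56% reached that limma p. Hsd17b11, a droplet-bound dehydrogenase, averaged 12.23 in knockout and 11.74 in control (difference 0.49, -0.20 to 1.19), and seipin (Bscl2), which shapes new droplets, 12.76 in knockout and 12.97 in control (-0.21, -0.56 to 0.13). Of 19 other lipid hydrolases 5 were higher and 14 lower (median -0.05), against 53.3% of all genes lower. An unadjusted limma p under 0.05 was reached by 3, all lower, where 1.38% of all genes were lower at that p. These 3 were also without overlap between the groups, as were 1.7% of all genes in either direction, and this is not a separate test.

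The lysosomal acid lipase Lipa, which digests lipid delivered to lysosomes, read 9.94, 10.05, 9.66 and 9.68 on knockouts 6, 8, 9 and 10, against 10.17, 10.12, 10.15 and 10.16 on controls 1, 2, 3 and 4. All 4 knockouts lay below all 4 controls, and the difference was -0.32 (-0.54 to -0.09). The carboxylesterase Ces1f read 8.71 to 8.99 in knockout and 9.08 to 10.01 in control, a difference of -0.75 (-1.19 to -0.32). Liver markers averaged 11.00 on control 1 and 6.03 on control 4, where Ces1f read 10.01 and 9.08. Among the knockouts they were highest on knockout 6, at 8.80, where Ces1f was lowest, at 8.71. Their part in the Ces1f difference was not tested. Daglb, a diacylglycerol lipase, read 6.85 to 7.03 in knockout and 7.09 to 7.51 in control, a difference of -0.26 (-0.51 to -0.01). The unadjusted limma p was 0.0111 for Lipa, 0.00387 for Ces1f and 0.0411 for Daglb, each with an adjusted p of 0.999. The 8 measured macrophage markers, a cell type that also expresses Lipa, averaged 9.44 to 10.01 in knockout and 9.78 to 10.48 in control, and their part in the Lipa difference was not tested.

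Over all genes 53.3% were lower, and 2.56% had an unadjusted limma p under 0.05 in either direction. Of 27 genes of hormonal control of lipolysis 12 were higher and 15 lower (median -0.05), and 1 had an unadjusted p under 0.05. It was Hcar2, the nicotinic acid receptor that restrains lipolysis, which averaged 7.75 in knockout and 8.12 in control (-0.38, -0.74 to -0.01) with overlapping groups. Of 10 transcription factors known to act on these genes 2 were higher and 8 lower (median -0.05), with Foxo1, an activator of Pnpla2, at 10.48 in knockout and 10.32 in control (0.16, -0.05 to 0.38) and Nr1h3 at 9.39 in knockout and 9.59 in control (-0.20, -0.61 to 0.22). Of 12 lipogenic targets of SREBP-1c and ChREBP, the factors known to drive Pnpla3 in liver, 2 were higher and 10 lower (median -0.33). Of these 12, 1 had an unadjusted limma p under 0.05, against the 2.56% of all genes. It was Pklr, pyruvate kinase, which averaged 8.09 in knockout and 7.87 in control (0.23, 0.02 to 0.44) with overlapping groups. Centred on each gene's mean, these 12 genes averaged 0.02, 0.06, -0.10 and -0.59 on knockouts 6, 8, 9 and 10, against 0.54, 0.45, 0.10 and -0.49 on controls 1, 2, 3 and 4. The 2 arrays low for Pnpla3 and Plin2 were thus the 2 lowest for this list. The 10 transcription factors, which include the genes of SREBP-1c and ChREBP, were also lowest there, at -0.24 on knockout 10 and -0.15 on control 4. The other lists were not. On knockout 10 and control 4 the droplet proteins were at 0.04 and -0.04 and the other lipid hydrolases at -0.05 and 0.01. The genes of hormonal control of lipolysis were at -0.01 and -0.02. Of the 1158 genes at least as bright as Abhd5, 31.3% had knockout 10 and 37.0% control 4 among their 2 lowest arrays. A shared cause was not tested.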

How the data were processed

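Gonadal white fat was profiled on 8 Affymetrix arrays, 4 knockout and 4 control. Per the submitters' processing notes, the authors used RMA, a background correction, a normalisation across arrays and a summary per probe set, in a version that the sources used here do not give. The deposited log2 values run from 2.71 to 14.83 and carry no detection calls. Brightness depends on the probes, so levels are not compared between genes, and precision is limited by the number of arrays.

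The 64 control probe sets were left out. Of 45037 others, 34945 had 1 gene symbol in the platform annotation of 2016, 932 had several and 9160 none; only the first were named. Entrez numbers matched 34741 of them to RefSeq genes (GRCm38.p6), which changed 0 symbols. Each gene was represented by its probe set with the highest mean, giving 18193 genes. Knockout was compared with control without covariates, using lmFit and eBayes of limma 3.58.1 (R 4.3.3), with Benjamini-Hochberg adjustment over all genes, a threshold of 0.05 and 95% intervals not adjusted for multiplicity. The fit was also run on simulated data with the spread of these genes, drawn independently per gene and array. It found 34 of 50 genes changed 1.5-fold and 47 of 50 changed 4-fold, with 6 false calls. Effects shared by an array were not simulated, so these rates need not hold for the arrays here. Changed genes were drawn at random from all genes, so the rates need not hold for members of larger spread. Many genes were also changed at once, which eases the adjustment, while 0% of genes passed in the data here. Named genes were the members, up to 4 genes per pathway list with an unadjusted p under 0.05 (else the 2 with the smallest p), and the 3 nearest profiles of the 3 most variable members. Alternatives were a variance trend, a filter on dim genes, renormalisation, averaged probe sets, array weights, the array set, an RNA quality covariate and leaving out arrays. The members, lists and array sets were chosen with earlier results of these data known. Figures were drawn with matplotlib 3.10.9.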

Additional observations from a re-analysis of the deposited data

Results flagged for a closer look

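In 3 of the 32 groups of 4 arrays examined (16 probe sets in 2 groups) an array's gap to its nearest neighbour exceeded the limit of Dixon's test for 4 values, which chance passes in about 1 of 20 groups. Lipe read 12.85 on knockout 9, with the other knockouts at 13.21 to 13.27, a gap of 0.851 of the group's range. Mgll read 13.57 on knockout 6, with the other knockouts at 13.25 to 13.29, a gap of 0.878. Plin2 read 11.92 on control 4, with the other controls at 12.89 to 13.06, a gap of 0.850. Array knockout 9 also had a 3' minus 5' gap of 4.65 for pyruvate carboxylase, and control 4 one of 4.83, while knockout 6 had 2.10.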

How the results depend on the processing

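No paired analysis was possible because the labels give the groups no shared replicate number. Over all genes 0 passed in every fit of 8 arrays, within either set and on leaving out each array in turn (0 to 0); 155 of 18193 genes (0.852%), 0 of them members, passed without controls 1 and 4 and knockout 9, the arrays with the large 3' to 5' difference (left out after seeing the data); the cause was not tested. No member passed in any of 171 refits of single members, 33 of which turned the sign of a difference that was never past the threshold. Plin2 and Cidec kept their sign in all of theirs. Differences turned to -0.0033 (Pnpla2), -0.011 (Lipe) and -0.0049 (Mgll) with array medians subtracted, which moves the difference of every gene by -0.027, and to -0.00066 (Lipe) with averaged probe sets. With array weights they were -0.041 (Pnpla3), -0.030 (Lipe), -0.035 (Mgll) and -0.019 (G0s2), and with the RNA quality covariate -0.085 (Lipe) and -0.0095 (Mgll). Within set 1 they were -0.19 (Pnpla3), -0.064 (Lipe), -0.028 (Mgll), -0.12 (G0s2) and -0.0060 (Plin4), and within set 2 -0.037 (Pnpla2) and 0.18 (Abhd5). Without controls 1 and 4 and knockout 9 they were -0.16 (Pnpla3), -0.12 (Lipe), -0.034 (Mgll), 0.013 (Abhd5), -0.22 (G0s2) and -0.018 (Plin4). Leaving out 1 array gave -0.033 to 0.066 for Pnpla2, -0.15 to 0.44 for Pnpla3, -0.14 to 0.12 for Lipe, -0.053 to 0.10 for Mgll, -0.32 to -0.0071 for Abhd5, -0.10 to 0.34 for G0s2, -0.54 to -0.10 for Plin2, -0.014 to 0.080 for Plin4 and -0.19 to -0.02 for Cidec. The causes of these turns were not tested. Array brightness has no detection call here, which limits what dim probe sets such as 1432180_at and 1447548_at can show, also where they enter a mean of probe sets.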
